A study of Mus musculus with 9 samples.

Results

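The genes described here are 10 sensors of foreign or misplaced nucleic acid and their adaptor proteins, of 27434 named genes in the expression table. They were chosen by gene symbol and function, with earlier results of these data known. They are the RNA helicases Ddx58, Ifih1 and Dhx58, the RNA-dependent kinase Eif2ak2, the Z-nucleic acid receptor Zbp1, the endosomal receptors Tlr3 and Tlr9, and the adaptors Mavs, Myd88 and Tmem173. The table has 9 of them under these symbols and Tmem173 under its current symbol, Sting1, matched through the 3 RefSeq accessions both share. They were measured as polyadenylated RNA from nuclei of frozen liver. In 5 libraries the mice had received AAV8-STAT5ca, an adeno-associated virus of serotype 8 that carries constitutively active STAT5b, at 2e11 genome copies per animal by tail vein. Of these, 2 were taken 4 weeks and 3 were taken 6 weeks after injection. The 4 control libraries came from mice injected with vehicle, 2 taken at 4 weeks and 2 at 6 weeks. All were male CD1 mice, an outbred stock, aged 11 to 12 weeks at the earlier time and 13 to 14 weeks at the later one. The labels describe this serotype as highly specific for hepatocytes. Control mice received no virus, so the vector and the STAT5ca it encodes cannot be told apart in any difference below.

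RIG-I (encoded by Ddx58) and MDA5 (Ifih1) bind foreign RNA in the cytosol and signal through MAVS on the mitochondrial membrane. Endosomal Toll-like receptors and the DNA sensor cGAS use other adaptors, MyD88, TRIF and STING. Each route leads to one or more of the transcription factors IRF3, IRF7 and NF-kappa B, and the routes can lead to interferon. Interferon in turn induces many of the sensors through ISGF3, a transcription factor complex that contains STAT2 and IRF9 and binds the interferon-stimulated response element (ISRE). The genome of an adeno-associated virus is DNA, and TLR9 with MyD88 is a known route by which such vectors are sensed in mice.

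The promoters of 4 sensor genes that hold an ISRE core are shown because 3 of these genes rose with AAV8-STAT5ca and 1 did not pass the test. Sequences are those of RefSeq on GRCm38.p6, from 250 bases before to 50 bases after the start of the gene, 5′ to 3′ on the strand of the gene, with the ISRE core in capitals. The core was searched on both strands as GAAA, any 2 bases and GAAA, and a match is a description of letters, not a proven site. Ddx58 lies at chr4:40239776-40240075, Ifih1 at chr2:62646206-62646505, Eif2ak2 at chr17:78882523-78882822 and Myd88 at chr9:119339969-119340268, all on the minus strand.
Ddx58: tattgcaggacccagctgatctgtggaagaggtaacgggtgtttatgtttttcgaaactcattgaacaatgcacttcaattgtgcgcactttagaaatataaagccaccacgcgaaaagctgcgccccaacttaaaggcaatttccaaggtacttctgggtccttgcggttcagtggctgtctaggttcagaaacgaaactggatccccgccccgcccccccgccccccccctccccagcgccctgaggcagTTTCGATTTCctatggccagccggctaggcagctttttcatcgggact
Ifih1: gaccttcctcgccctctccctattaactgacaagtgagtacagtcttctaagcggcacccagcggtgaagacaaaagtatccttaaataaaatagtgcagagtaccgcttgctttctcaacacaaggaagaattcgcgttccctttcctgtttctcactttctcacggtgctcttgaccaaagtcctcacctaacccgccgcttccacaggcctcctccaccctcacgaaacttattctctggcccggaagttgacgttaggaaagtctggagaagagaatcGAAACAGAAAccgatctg
Eif2ak2: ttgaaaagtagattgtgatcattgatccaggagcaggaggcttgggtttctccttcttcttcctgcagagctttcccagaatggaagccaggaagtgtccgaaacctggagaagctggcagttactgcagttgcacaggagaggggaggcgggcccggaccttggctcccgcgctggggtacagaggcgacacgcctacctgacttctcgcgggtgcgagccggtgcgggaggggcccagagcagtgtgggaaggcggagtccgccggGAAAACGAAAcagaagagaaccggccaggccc
Myd88: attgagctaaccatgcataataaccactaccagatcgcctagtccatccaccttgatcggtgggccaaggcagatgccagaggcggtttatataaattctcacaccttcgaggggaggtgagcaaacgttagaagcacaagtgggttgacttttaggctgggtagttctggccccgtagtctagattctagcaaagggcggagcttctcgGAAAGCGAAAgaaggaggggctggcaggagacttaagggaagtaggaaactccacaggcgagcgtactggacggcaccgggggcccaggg

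The promoter table held 7 of the 10 genes, and 4 of these 7 contained the core, against 3.44% of all 32851 promoters of the same length. Dhx58 and Zbp1, which rose, and Tmem173 had no entry there and were not searched. The core lay after the start of the gene in Ddx58 (bases 3 to 12, on the opposite strand), Ifih1 (bases 33 to 42) and Eif2ak2 (bases 19 to 28), and before it in Myd88 (bases -40 to -31). Mavs, Tlr3 and Tlr9 had no match in this window. The gamma-activated site that STAT dimers bind, searched as TTC, any 3 bases and GAA, which reads the same on both strands, matched Eif2ak2 (bases -178 to -170) and Myd88 (bases -46 to -38). The Myd88 match overlaps its ISRE core. Of all promoters 8.30% held this sequence. The form with 1 more base between TTC and GAA matched 0 of the 7 and 6.95% of all promoters. A kappa B consensus matched Tlr3 alone (bases -211 to -202), and 8.46% of all promoters.

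**Figure D1:**
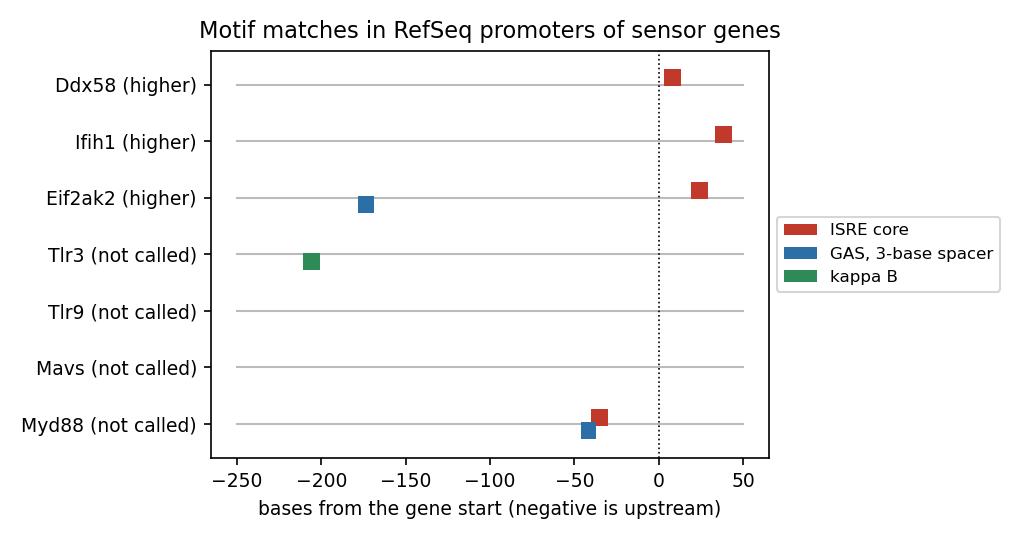
Motif matches in the promoters of 7 sensor genes, by distance in bases from the start of the gene (dotted line, negative is upstream). Each box is a match, coloured by motif, and "higher" marks an adjusted p under 0.05. All 3 genes marked as higher, and Myd88, hold an ISRE core. Dhx58 and Zbp1, which also rose, had no promoter to search and are not drawn.

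With AAV8-STAT5ca, 5 of the 10 genes rose and 0 fell, at an adjusted p under 0.05 according to the authors' deposited table, where 3.87% of named genes rose and 1.92% fell. The 5 that rose were Zbp1, Ifih1, Dhx58, Ddx58 and Eif2ak2, which bind RNA or Z-form nucleic acid inside the cell. The endosomal receptors Tlr3 and Tlr9 and the adaptors Mavs, Myd88 and Tmem173 did not pass the test. Among named genes averaging 1 RPKM or more, a level that 9 of the 10 reach, 6.09% rose and 3.95% fell. The median log2 fold of the 10 was 0.88, against 0.02 over the 11699 named genes at that level. Each RPKM (reads scaled to exon length and library total) is the authors' value for a group, so the spread between libraries enters only through their adjusted p.

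**Figure D2:**
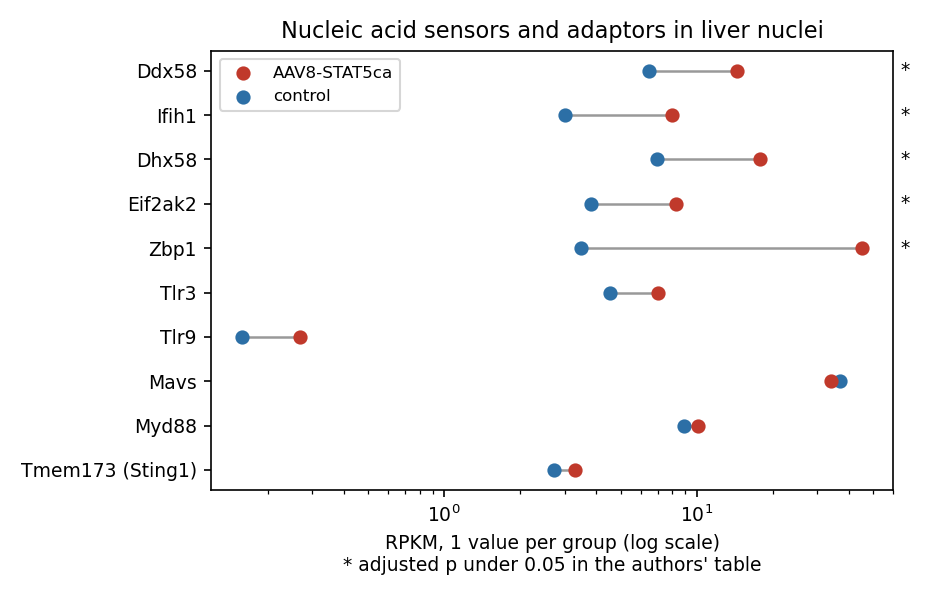
RPKM of the 10 sensor and adaptor genes on a log axis, with 1 dot for the AAV8-STAT5ca group and 1 for the control group, and an asterisk for an adjusted p under 0.05. The 5 genes with an asterisk are 2.07-fold to 12.3-fold higher with AAV8-STAT5ca, and the dots of Mavs, Myd88 and Tmem173 lie close together.

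The 3 RIG-I-like helicases rose together. Ddx58, the receptor for short RNA with a triphosphate end, had 14.4 RPKM in STAT5ca livers and 6.50 RPKM in control livers (2.12-fold higher, adjusted p = 1.81e-05 according to the authors' deposited table). Ifih1, the receptor for long double-stranded RNA, had 7.96 RPKM in STAT5ca livers and 3.02 RPKM in control livers (2.50-fold higher, adjusted p = 8.31e-07 according to the authors' deposited table). Dhx58 encodes LGP2, which lacks the signalling domains of the other two and modulates them. It had 17.9 RPKM in STAT5ca livers and 6.98 RPKM in control livers (2.44-fold higher, adjusted p = 2.28e-06 according to the authors' deposited table). Summed, the 3 helicases had 40.3 RPKM in STAT5ca livers and 16.5 RPKM in control livers. Per length, Dhx58 RNA was 2.25 times that of Ifih1 in STAT5ca livers and 2.31 times in control livers. On mm9, the build of the table, all 3 lie on minus strands. Ddx58 spans bases 40150810 to 40186858 of chromosome 4, Ifih1 bases 62433850 to 62484312 of chromosome 2, and Dhx58 bases 100556198 to 100565585 of chromosome 11. Whether the 3 folds differ among themselves was not tested.

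Their shared adaptor did not follow. Mavs, the mitochondrial protein on which RIG-I and MDA5 converge, had 34.1 RPKM in STAT5ca livers and 37.1 RPKM in control livers (adjusted p = 1 according to the authors' deposited table). In control livers it had the highest level of the 10, and 10.9% of named genes averaging 1 RPKM or more stood above it. Mavs spans bases 131059799 to 131073760 of chromosome 2 on mm9, on the plus strand. Ddx58 RNA was 0.423 of the Mavs level per length in STAT5ca livers and 0.175 in control livers, and Ifih1 RNA was 0.233 of it in STAT5ca livers and 0.0815 in control livers.

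Eif2ak2 encodes PKR, which shuts down translation when it binds double-stranded RNA. It had 8.27 RPKM in STAT5ca livers and 3.80 RPKM in control livers (2.07-fold higher, adjusted p = 1.51e-05 according to the authors' deposited table). It spans bases 79251890 to 79281912 of chromosome 17 on mm9, minus strand. The other kinases of the same substrate, Eif2ak1, Eif2ak3 and Eif2ak4, which answer to haem, stress of the endoplasmic reticulum and amino acid lack, did not pass the test. Eif2ak1 had 7.96 RPKM in STAT5ca livers and 8.71 RPKM in control livers, Eif2ak3 had 4.84 RPKM in STAT5ca livers and 5.36 RPKM in control livers, and Eif2ak4 had 5.56 RPKM in STAT5ca livers and 4.72 RPKM in control livers (adjusted p = 1 for each according to the authors' deposited table).

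Zbp1 moved most. It encodes a sensor of Z-form RNA and DNA that can start necroptosis, a lytic form of cell death, through RIPK3 and MLKL. It had 45.3 RPKM in STAT5ca livers and 3.48 RPKM in control livers (12.3-fold higher, adjusted p = 2.11e-27 according to the authors' deposited table), at chromosome 2, 173032113 to 173044423 on mm9. By fold it ranked 61 of the 11699 named genes averaging 1 RPKM or more. In the order of levels among the 10 it stood at 1 in STAT5ca livers and at 7 in control livers. Without Zbp1 the other 9 genes summed to 103 RPKM in STAT5ca livers and 73.7 RPKM in control livers. The rise rests on about 1400 reads per library in STAT5ca livers and about 86 in control livers, as estimated from exon lengths and library totals.

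**Figure D3:**
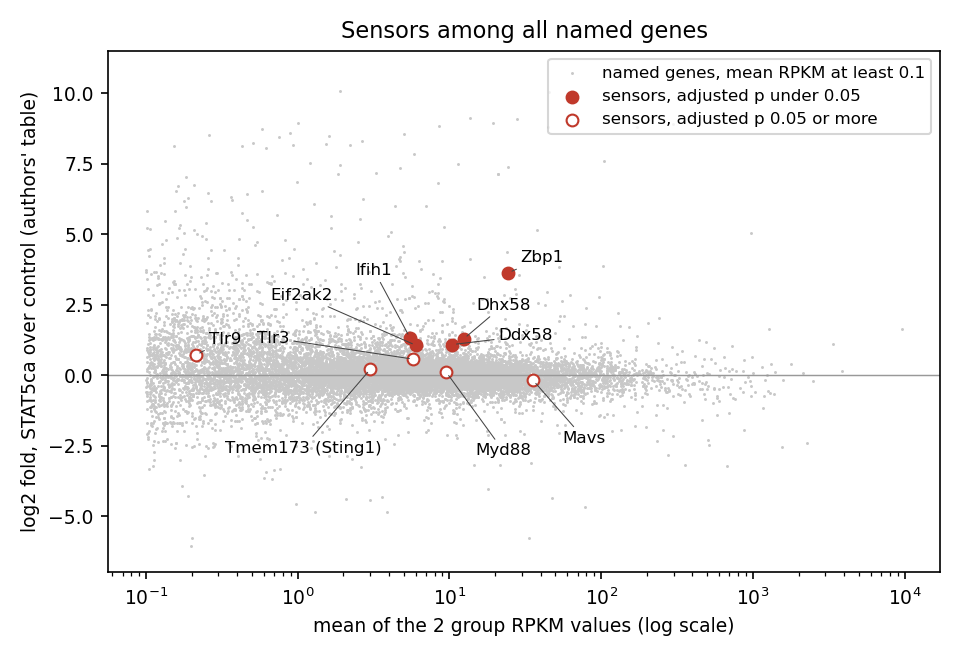
Log2 fold of STAT5ca over control against the mean of both group RPKM values (log axis) for named genes averaging 0.1 RPKM or more (grey) and the 10 sensor genes (red, filled where the adjusted p is under 0.05). Zbp1, at a log2 fold of 3.62, stands apart from the other 4 filled points, which lie between 1.05 and 1.32.

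The endosomal receptors among the 10, Tlr3 and Tlr9, had higher values with AAV8-STAT5ca but did not pass the test. Tlr3, the receptor for double-stranded RNA taken up into endosomes, had 7.05 RPKM in STAT5ca livers and 4.54 RPKM in control livers (1.48-fold, adjusted p = 0.143 according to the authors' deposited table). Tlr9, the receptor for DNA with unmethylated CpG, was the faintest of the 10, with 0.268 RPKM in STAT5ca livers and 0.159 RPKM in control livers (1.64-fold, adjusted p = 0.841 according to the authors' deposited table). Tlr3 spans bases 46481019 to 46495973 of chromosome 8 on the minus strand, and Tlr9 bases 106124929 to 106129207 of chromosome 9 on the plus strand (mm9). For Tlr9 the value is low enough to recover the whole reads behind it. Over the 5 STAT5ca libraries, 7 combinations of reads give the deposited value, with 63 to 68 reads in total. Over the 4 control libraries 1 combination does, with 24 reads in total. In order of rising depth, the control libraries had 8, 6, 7 and 3 Tlr9 reads. These are 0.243, 0.161, 0.166 and 0.0658 RPKM, a mean of 0.159 ± 0.0726 (SD, n = 4). The control library with the fewest reads was the deepest one.

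Myd88, the adaptor of TLR9 and most other Toll-like receptors, had 10.1 RPKM in STAT5ca livers and 8.94 RPKM in control livers (1.07-fold, adjusted p = 1 according to the authors' deposited table). It was the gene with an ISRE core that did not pass the test. Tmem173 encodes STING, the adaptor that cGAS switches on through a cyclic dinucleotide. It had 3.31 RPKM in STAT5ca livers and 2.72 RPKM in control livers (1.15-fold, adjusted p = 1 according to the authors' deposited table). On mm9, Myd88 spans bases 119245052 to 119249136 of chromosome 9 and Tmem173 bases 35893332 to 35900208 of chromosome 18, both on the minus strand. The 3 adaptors together had 47.5 RPKM in STAT5ca livers and 48.7 RPKM in control livers.

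By level, the order of the 10 in STAT5ca livers was Zbp1, Mavs, Dhx58, Ddx58, Myd88, Eif2ak2, Ifih1, Tlr3, Tmem173 and Tlr9. In control livers it was Mavs, Myd88, Dhx58, Ddx58, Tlr3, Eif2ak2, Zbp1, Ifih1, Tmem173 and Tlr9. Without values per library, neighbours in either order cannot be said to differ. Apart from Tlr9, the estimated reads per library ranged from about 110 for Tmem173 to about 1500 for Mavs in STAT5ca livers, and from about 72 for Tmem173 to about 1300 for Mavs in control livers.

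Around the sensors, 8 lists of pathway genes held 131 genes of the table, of which 27 rose and 1 fell, with a median log2 fold of 0.26. Of all named genes, 3.87% rose and 1.92% fell. Among those averaging 1 RPKM or more, 6.09% rose and 3.95% fell. Of 15 genes that assist RIG-I-like receptors, 3 rose and 0 fell, with a median log2 fold of 0.31. Ddx60, a helicase gene reported to promote RIG-I signalling, rose 4.91-fold (7.88 RPKM in STAT5ca livers, 1.52 RPKM in control livers, adjusted p = 9.25e-18), Zc3hav1, which encodes the zinc-finger antiviral protein, 1.70-fold, and the RNA helicase gene Mov10 1.78-fold according to the authors' deposited table. Trim25, the ubiquitin ligase tied to RIG-I activation, had 21.8 RPKM in STAT5ca livers and 15.1 RPKM in control livers (adjusted p = 0.155 according to the authors' deposited table).

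Among named genes averaging 1 RPKM or more, 6.09% rose and 3.95% fell. Of 13 further genes of the endosomal receptor route, 12 of them at that level, 1 rose and 0 fell, which is near these shares. Their median log2 fold was -0.18. The gene that rose was Tlr7, itself an endosomal receptor, which binds single-stranded RNA. It had 1.55 RPKM in STAT5ca livers and 0.594 RPKM in control livers (2.45-fold higher, adjusted p = 0.00496 according to the authors' deposited table). Unc93b1, the chaperone that brings these receptors to endosomes, had 61.5 RPKM in STAT5ca livers and 46.5 RPKM in control livers (adjusted p = 0.585 according to the authors' deposited table). Ticam1, which encodes TRIF, the adaptor of TLR3, had 4.07 RPKM in STAT5ca livers and 4.88 RPKM in control livers (adjusted p = 0.828 according to the authors' deposited table). Of 12 other Toll-like receptor genes and their partners, 10 of them at that level, 1 rose and 1 fell, also near these shares. Their median log2 fold was 0.58. Tlr1, a receptor for bacterial lipopeptides, rose 2.95-fold, and Tlr5, the flagellin receptor, fell, being 1.92-fold lower according to the authors' deposited table.

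Of 18 genes for cytosolic DNA sensing and necroptosis, 7 rose and 0 fell, with a median log2 fold of 0.80. Cgas, the DNA sensor upstream of STING, rose 2.29-fold at a low level (0.777 RPKM in STAT5ca livers, 0.317 RPKM in control livers, adjusted p = 0.00631 according to the authors' deposited table). Aim2, the inflammasome sensor of DNA, rose 3.19-fold, Ifi204 2.82-fold and Trim30a 3.61-fold according to the authors' deposited table. Ifi204 and Trim30a have close relatives in the genome, and reads may have been split between the copies. Downstream of ZBP1, Mlkl, the executor of necroptosis, rose 2.15-fold (7.30 RPKM in STAT5ca livers, 3.23 RPKM in control livers, adjusted p = 7.43e-05), and Ripk3, the kinase that activates it, had 4.44 RPKM in STAT5ca livers and 2.54 RPKM in control livers (adjusted p = 0.126) according to the authors' deposited table.

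Of 15 effectors that answer to double-stranded RNA, 8 rose and 0 fell, with a median log2 fold of 0.93. Oas1g rose 16.5-fold, Oasl2 7.93-fold and Oas1a 7.63-fold according to the authors' deposited table. They belong to the oligoadenylate synthetase family of double-stranded RNA sensors, and the Oas1 copies are close to each other in sequence. The other family members that rose were Oas3 (6.99-fold), Oas2 (5.40-fold), Oasl1 (3.55-fold) and Oas1b (2.63-fold) according to the authors' deposited table. Adar, which edits double-stranded RNA and so keeps the cell's own RNA from MDA5, rose 1.91-fold (18.3 RPKM in STAT5ca livers, 9.11 RPKM in control livers, adjusted p = 9.85e-05 according to the authors' deposited table).

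**Figure D4:**
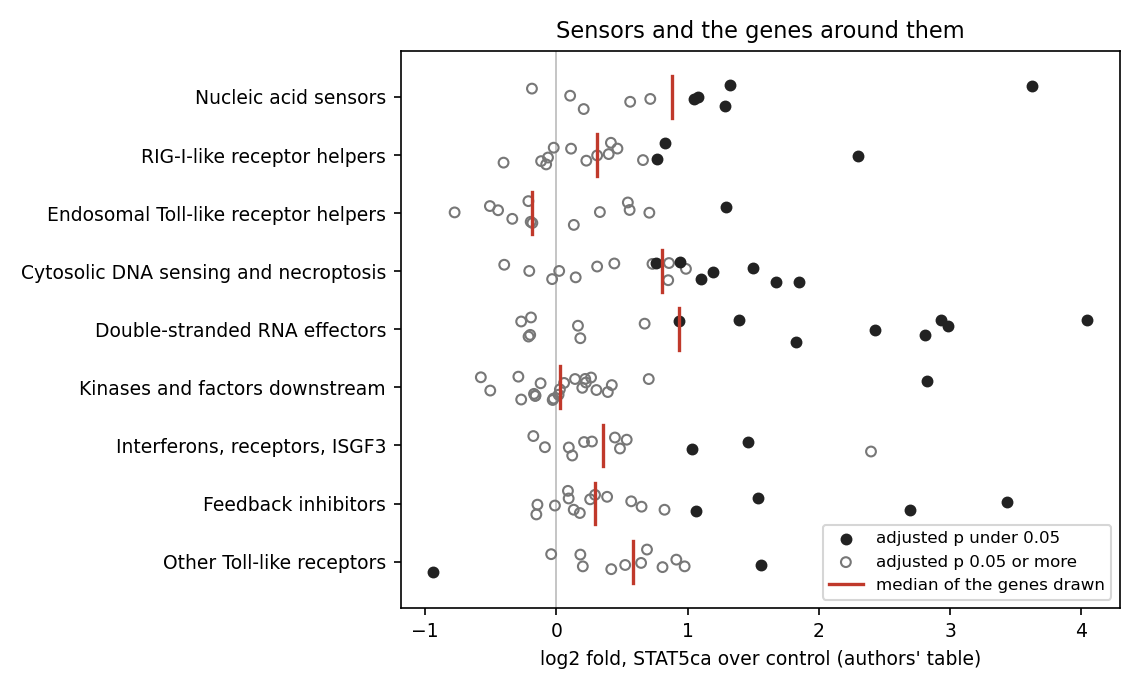
Log2 fold of STAT5ca over control for the 10 sensor genes and 8 lists of pathway genes. Each circle is a gene above 0 RPKM in both groups, filled where the adjusted p is under 0.05, and the red bar is the median of the genes drawn, which lies at 0.88 for the sensors and at 0.03 for kinases and factors downstream.

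Among all named genes averaging 1 RPKM or more, 6.09% rose and 3.95% fell. Of 23 kinases and transcription factors downstream of the sensors, all at that level, 1 rose and 0 fell, which is near these shares. Their median log2 fold was 0.03. The gene that rose was Irf7, which amplifies interferon production, at 109 RPKM in STAT5ca livers and 14.6 RPKM in control livers (7.10-fold higher, adjusted p = 1.22e-26 according to the authors' deposited table). Irf3, a factor that many of the sensors activate, had 51.9 RPKM in STAT5ca livers and 55.6 RPKM in control livers. Tbk1, the kinase of IRF3, had 21.1 RPKM in STAT5ca livers and 17.5 RPKM in control livers (adjusted p = 1 for both genes according to the authors' deposited table).

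The interferon genes that were looked up, all named below, were at 0 or below 1 RPKM in both groups. Other interferon genes were not examined. Ifnb1, the gene of interferon beta, had 3 reads (0.0536 RPKM) over the 5 STAT5ca libraries, 1 in each of 3 of them, and 0 reads over the 4 control libraries. A count of 0 allows up to 3 reads, which at the median library total would be 0.0851 RPKM of Ifnb1 in control livers, above the value in STAT5ca livers. Ifna1, Ifna2, Ifna4, Ifnl2 and Ifnl3 were listed at 0 in both groups. Ifng, the gene of interferon gamma, had 0.236 RPKM in STAT5ca livers and 0.0341 RPKM in control livers (adjusted p = 0.201 according to the authors' deposited table). Of the 18 interferon, receptor and ISGF3 genes 2 rose and 0 fell, beside 3.87% and 1.92% of all named genes. Over the 12 that were above 0 in both groups the median log2 fold was 0.36. Irf9, the DNA-binding part of ISGF3, was among those that rose (33.5 RPKM in STAT5ca livers, 15.6 RPKM in control livers, 2.05-fold higher, adjusted p = 6.39e-05 according to the authors' deposited table). Stat2, another part of ISGF3, had 91.6 RPKM in STAT5ca livers and 63.8 RPKM in control livers (adjusted p = 0.168), and Ifnar1, a chain of the interferon alpha and beta receptor, had 10.2 RPKM in STAT5ca livers and 9.08 RPKM in control livers (adjusted p = 1) according to the authors' deposited table. Of 17 feedback inhibitors 4 rose and 0 fell, with a median log2 fold of 0.29. Usp18, which removes ISG15 from proteins and blocks the interferon receptor, rose 10.8-fold, Isg15 6.46-fold and Parp14 2.90-fold according to the authors' deposited table. Socs1, which inhibits JAK kinases, was the remaining one, with 3.07 RPKM in STAT5ca livers and 1.39 RPKM in control livers (2.09-fold higher according to the authors' deposited table).

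**Figure D5:**
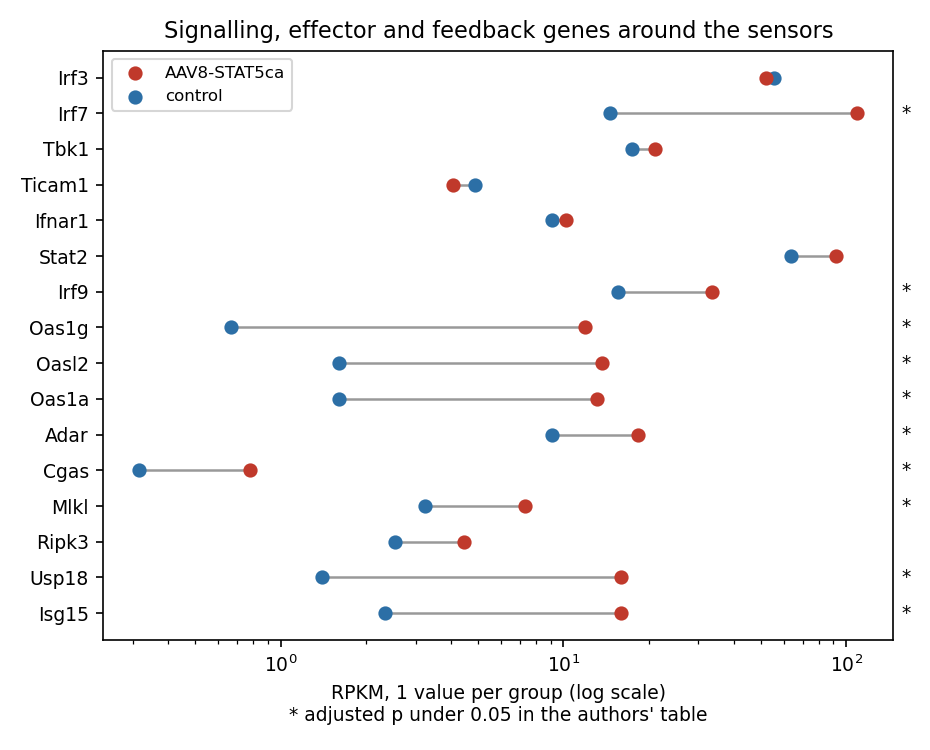
RPKM of signalling, effector and feedback genes on a log axis, with 1 dot for the AAV8-STAT5ca group and 1 for the control group, and an asterisk for an adjusted p under 0.05. Irf7 reaches 109 RPKM in STAT5ca livers against 14.6 RPKM in control livers, while the dots of Irf3, Tbk1 and Ifnar1 lie close together.

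The ISRE core was also counted in the promoters of the 8 pathway lists. It was present in 8 of 20 promoters of pathway genes that rose. Among pathway genes that did not pass the test it was present in 10 of 83 promoters. Of all 32851 promoters 3.44% held it. The lists were chosen with earlier results of these data known, and the difference was not tested. Among the sensors with a promoter in the table the counts were 3 of 3 and 1 of 4. These leave out Dhx58 and Zbp1, which rose, and Tmem173.

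The levels come from whole liver nuclei, in which more cells of a type and more RNA per cell cannot be told apart. Kupffer cells and other immune cells express many of the sensors, and most of their markers had higher values with AAV8-STAT5ca. The marker counts below stand beside 3.87% of all named genes that rose and 1.92% that fell. Among those averaging 1 RPKM or more, the shares were 6.09% and 3.95%. Of 12 markers of Kupffer cells and macrophages 2 rose and 0 fell, with a sum of 682 RPKM in STAT5ca livers and 399 RPKM in control livers. They were Cd5l (2.20-fold, adjusted p = 0.00106) and Clec4f (1.65-fold, adjusted p = 0.0258) according to the authors' deposited table. Of 8 B cell markers 3 rose and 0 fell (sums of 37.1 RPKM in STAT5ca livers and 18.0 RPKM in control livers), Cd79b among them (2.06-fold, adjusted p = 0.00882), and Cd79a had 12.7 RPKM in STAT5ca livers and 6.66 RPKM in control livers (adjusted p = 0.164) according to the authors' deposited table. Of 10 markers of plasmacytoid dendritic cells, the main makers of interferon through TLR7 and TLR9, 2 rose and 0 fell. Their sums of 207 RPKM in STAT5ca livers and 84.9 RPKM in control livers were almost all Bst2 (200 RPKM in STAT5ca livers, 80.3 RPKM in control livers), which interferon also induces in other cells. Tcf4 had 4.05 RPKM in STAT5ca livers and 3.01 RPKM in control livers (adjusted p = 0.536 according to the authors' deposited table), and Cox6a2 was listed at 0 in control livers. The other marker that rose was Spib, with 1.08 RPKM in STAT5ca livers and 0.398 RPKM in control livers. Pax5 was also among the B cell markers that rose (0.749 RPKM in STAT5ca livers, 0.186 RPKM in control livers).

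Of 7 markers of conventional dendritic cells 3 rose and 0 fell (sums of 8.50 RPKM in STAT5ca livers and 5.69 RPKM in control livers), namely Itgax (1.49 RPKM in STAT5ca livers, 0.466 RPKM in control livers), Flt3 and Xcr1, both under 1 RPKM in either group. Clec9a had 2.75 RPKM in STAT5ca livers and 1.49 RPKM in control livers (adjusted p = 0.0611) and Zbtb46 1.76 RPKM in STAT5ca livers and 2.33 RPKM in control livers (adjusted p = 0.529) according to the authors' deposited table. Of 9 T and NK cell markers 1 rose and 0 fell (sums of 19.6 RPKM in STAT5ca livers and 10.9 RPKM in control livers), namely Klrd1 (2.93-fold, adjusted p = 8.04e-04), while Gzma had 4.95 RPKM in STAT5ca livers and 2.07 RPKM in control livers (adjusted p = 0.0633) according to the authors' deposited table. Of 8 neutrophil markers 2 rose and 0 fell (sums of 13.4 RPKM in STAT5ca livers and 10.5 RPKM in control livers). The 2 that rose were Ngp, with 1.43 RPKM in STAT5ca livers and 0.0228 RPKM in control livers, and Camp, with 0.690 RPKM in STAT5ca livers and 0.0320 RPKM in control livers. The most abundant neutrophil markers were Csf3r, with 4.44 RPKM in STAT5ca livers and 4.06 RPKM in control livers, and S100a9, with 3.02 RPKM in STAT5ca livers and 2.74 RPKM in control livers (adjusted p = 1 for both according to the authors' deposited table).

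Some markers of endothelial and stellate cells fell. Of 10 endothelial markers 0 rose and 3 fell (sums of 340 RPKM in STAT5ca livers and 476 RPKM in control livers), among them Clec4g (1.49-fold lower, adjusted p = 0.0424 according to the authors' deposited table), and Fcgr2b had 77.5 RPKM in STAT5ca livers and 95.4 RPKM in control livers (adjusted p = 0.658). Stab1 and Gpr182 were the others that fell. Of 8 stellate cell markers 0 rose and 3 fell (sums of 176 RPKM in STAT5ca livers and 320 RPKM in control livers), among them Ecm1 (2.72-fold lower, adjusted p = 1.20e-08) and Dcn (1.59-fold lower, adjusted p = 0.00605) according to the authors' deposited table, with Reln as the other. Of 10 hepatocyte markers 1 rose and 0 fell, with a median log2 fold of -0.06. It was Alb, the albumin gene (3.13-fold, adjusted p = 1.51e-04 according to the authors' deposited table), and Apoa1 had 2382 RPKM in STAT5ca livers and 2630 RPKM in control livers. The sum in STAT5ca livers over the sum in control livers was 2.44 for plasmacytoid dendritic cell markers, where it was almost all Bst2. This ratio was 2.06 for B cell, 1.80 for T and NK cell, 1.71 for Kupffer cell, 1.49 for conventional dendritic cell and 1.29 for neutrophil markers. It was 1.79 for hepatocyte markers, whose sums include Alb (14666 RPKM in STAT5ca livers, 4563 RPKM in control livers). For endothelial markers it was 0.71 and for stellate cell markers 0.55. For the 10 sensors the same ratio was 1.93. The fold of the single sensors that were called, 2.07 to 12.3, is another measure and cannot be set against these ratios. The part of the cell types in the sensor values was not tested.

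The libraries were stranded, and whether counting used strand is not given in the sources used here, so reads of a gene and of an overlapping feature cannot be told apart. Within 10 kb of the 10 genes the table has 20 lncRNA features and 12 named genes. Of the 20 lncRNA features 0 passed the test, where 1.47% of all lncRNA features rose and 1.25% fell, and none exceeded 0.833 RPKM in STAT5ca livers or 0.687 RPKM in control livers. One overlaps a sensor, an antisense feature at Tlr3, with 0.467 RPKM in STAT5ca livers and 0.401 RPKM in control livers. Gm6548, annotated 6 bases from Eif2ak2, had 5.88 RPKM in STAT5ca livers and 3.10 RPKM in control livers (1.80-fold higher, adjusted p = 0.0102 according to the authors' deposited table), and was named after its value was seen. Alas1, the first enzyme of haem synthesis, lies 6579 bases from Tlr9 and rose 2.21-fold (adjusted p = 0.0250), and Acaa1a, a peroxisomal thiolase gene 1276 bases from Myd88, fell, being 1.68-fold lower (adjusted p = 0.00436) according to the authors' deposited table. Near Zbp1, Pmepa1 had 1.08 RPKM in STAT5ca livers and 1.29 RPKM in control livers (adjusted p = 1 according to the authors' deposited table). Near Dhx58, Kat2a, at 475 bases, had 18.1 RPKM in STAT5ca livers and 20.6 RPKM in control livers (adjusted p = 0.966 according to the authors' deposited table).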

How the data were processed

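In the deposited table each feature has a single RPKM value for either group. It also has a signed fold change of the authors, a score above 0 where STAT5ca is higher and below 0 where control is higher, and an adjusted p-value of the authors headed as from edgeR. In the copy used here 4 lines were emptied. Values refer to collapsed exons, per the file headers. STAR, featureCounts, edgeR and the mm9 build are named in the submitters' processing notes, without versions or settings. Both times after injection are pooled in each value. The sample titles number the males within each group, but the labels do not state outright that each library is a separate mouse. The p-values measure the spread between these libraries. A gene was called at an adjusted p under 0.05. The refit over libraries was not possible with 1 value per group.

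Library totals were read from lncRNA features with 1 read in 1 library and were 11823873 to 14863490 reads in STAT5ca and 9489045 to 13144589 reads in control libraries. The table does not tie totals to samples. Whole reads of Tlr9 and interferon genes were solved from RPKM, totals and length (end minus start per exon, which gave whole reads within a relative tolerance of 4e-08). Of 101 lengths within 50 bases of the Tlr9 length, 2 gave a solution in the control group. Intervals and floors cover counting error only. Both solvers were tested on simulated data. Reads per library of other genes were estimated from GENCODE M21 exons. Starts of named genes were taken as counted from 1, since 11340 of 22141 spans equal the RefSeq length on that reading and 41 on the other.

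The members and lists were chosen with earlier results of these data known. Beyond the 10 members, named genes were the 3 risen and 3 fallen genes of each pathway list with the largest fold that averaged 1 RPKM or more, fixed pathway nodes, and the 2 most abundant markers of each cell type. Eif2ak1, Eif2ak3 and Eif2ak4, the interferon genes other than Ifnb1, the other Oas genes, Socs1, Cox6a2, Spib, Pax5, Itgax, Flt3, Xcr1, Ngp, Camp, Stab1, Gpr182, Reln and the neighbouring genes were named in addition, after their values were seen. Some genes of the lists and of the fixed nodes are not reported here by name. Of the listed symbols, Tasl and Trac were not matched, and Mb21d1 was matched as Cgas through RefSeq. Alternatives were a threshold of 0.01, a minimum fold of 2, p adjusted once more among features averaging 0.1 RPKM or more, a minimum mean RPKM of 1, and the RPKM ratio with a pseudocount of 0.1 or 1. Computation used Python 3.11.15, pandas 2.3.3, numpy 2.4.6 and matplotlib 3.10.9.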

Additional observations from a re-analysis of the deposited data

How the results depend on the processing

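The calls of all 10 sensors were the same at each alternative that gave a value: 5 higher and 0 lower at a threshold of 0.01, at a minimum fold of 2, with p adjusted again and among genes averaging 1 RPKM or more, which leaves out Tlr9. Tlr3, not called, had an adjusted p of 0.0532 when adjusted again, against 0.143 in the authors' table. Eif2ak2 stood at 2.07-fold in the authors' table, and its log2 RPKM ratio with a pseudocount of 1 was 0.95, which is under 2-fold. The median log2 fold of the sensors was 0.74 as an RPKM ratio with a pseudocount of 1 and 0.78 as a ratio centred on named genes, whose median ratio was 0.08. All 58 named genes above 0 in both groups kept the sign of their fold under the 3 ratios. Of these, 7 lost their call at a minimum fold of 2 and 4 at a threshold of 0.01, and 3 gained one with p adjusted again (Clec9a, Gzma and Ripk3). Of 144 list counts under these rules, 111 were unchanged, 16 changed by up to 1.5 times and the 17 below by more. At a threshold of 0.01 there were 0 fallen other Toll-like receptors, 1 risen Kupffer cell marker, 1 risen plasmacytoid dendritic cell marker and 1 fallen endothelial marker. At a minimum fold of 2 there were 1 risen helper of RIG-I-like receptors, 0 fallen other Toll-like receptors, 1 risen Kupffer cell marker and 0 fallen endothelial markers. Among genes averaging 1 RPKM or more there were 1 risen plasmacytoid dendritic cell marker and 0 risen markers of conventional dendritic cells and of neutrophils. With p adjusted again there were 2 risen and 1 fallen kinases and factors downstream, 3 risen other Toll-like receptors, 2 risen T and NK cell markers, 5 fallen endothelial markers and 1 fallen hepatocyte marker. No paired analysis was possible because the table has 1 value per group, and for the same reason no library could be left out. The values of Tlr9 and Ifnb1 rest on few reads.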
